A study of Mus musculus with 4 samples.

Results

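The 9 genes described here encode transcription factors linked to the effector state of regulatory T cells (Treg): Irf4, Batf, Prdm1, Maf, Tbx21, Rora, Bcl6, Nfil3 and Bhlhe40. They were chosen by name, with earlier results of these data known, and matched by Ensembl mouse identifier. All 9 were found among the 38924 genes of the count table, and all 9 passed the filter on low counts, which kept 14235 genes. The data are RNA sequencing of Treg sorted from mouse spleen as CD4+ Foxp3+ cells, in 2 groups, resting and activated, of 2 libraries each, and the series states that the duplicates came from independent animals. Strain, age, sex, any Foxp3 reporter allele and the number of mice behind a library are not given by the labels, and no treatment is named for either group. The labels print an identical surface gate, CD62Lhi CD44lo, for resting and for activated cells, so the gate as printed does not separate them.

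Treg restrain immune responses. On stimulation through the T cell receptor a part of them leaves the resting, lymph node homing state and becomes effector Treg, which enter tissues and make suppressive molecules. The change is run by a set of transcription factors: Irf4 and Batf bind DNA together and open the programme, Prdm1 (Blimp-1) and Maf act downstream and favour interleukin 10, and Tbx21 (T-bet), Rora and Bcl6 steer cells towards type 1, tissue and follicular forms. Nfil3 and Bhlhe40 answer to stimulation and are also parts of the circadian clock.

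Each group has a library A and a library B, letters given in column order to tell its libraries apart. The labels do not say whether the same letter links libraries between groups. Where 4 values follow, the order within a group is A, then B. The libraries held 20282062 to 31851982 counts, so that 1 CPM (a library-size scaled count, with trimmed mean of M values factors) stood for 20.3 to 30.7 counts. Cd44, a hyaluronan receptor, was at 145 and 213 CPM in the resting libraries and at 329 and 335 CPM in the activated libraries, so that both activated libraries were higher although the printed gate is CD44lo in both groups. Foxp3, the defining factor of Treg, was at 35.0 to 38.7 CPM and Cd4 at 896 to 1244 CPM in the 4 libraries. Over all 14235 genes, edgeR's quasi-likelihood test with Benjamini-Hochberg adjustment called 0 genes, or 0%. At an unadjusted p under 0.05 it counted 897 genes higher (6.3%) and 371 lower (2.61%). DESeq2 gave 13959 of these genes an adjusted p and called 324 higher (2.32%) and 118 lower (0.845%). Both activated libraries lay above both resting ones in 2820 genes (19.8%) and below them in 2473 (17.4%). At least 1 count was found for 23398 genes in activated B and for 18928 to 19610 in the other libraries, which were deeper.

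The 9 factors lay on the activated side as a group. Each of the 9 had a log2 fold change (activated over resting) above 0, where 49.1% of all tested genes did. Their median was 1.22, against -0.0072 over all tested genes. Because the 9 were chosen with earlier results of these data known, the comparisons with all genes describe the list and do not test it. Maf, a basic leucine zipper factor that drives interleukin 10, and Tbx21, the T-box factor of type 1 responses, were called higher by DESeq2 (2 of 9, beside 2.32% of all genes), and edgeR called 0 of the 9. At an unadjusted edgeR p under 0.05, 5 of the 9 were higher and 0 lower, beside the 6.3% of all genes; they were Prdm1, Maf, Tbx21, Rora and Bcl6. In 6 of the 9, beside 19.8% of all genes, both activated libraries lay above both resting ones: these 5 and Bhlhe40. Irf4, Batf and Nfil3 overlapped between the groups. Exons of Maf, Rora, Bhlhe40 and Bcl6 overlap antisense genes, whose reads cannot be separated without a known strand setting. In bulk RNA a higher level cannot be told apart from a larger share of expressing cells.

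The DNA before the start of 4 of the factors is shown because it is where the factors, several of which regulate each other, could meet. Of the 9 genes 7 had an entry in the RefSeq promoter table (GRCm38.p6), and Bcl6 had 2 starts there, which gave 8 windows; Maf and Bhlhe40 are named only. Each sequence is the 250 bases before the start, 5′ to 3′ on the gene's strand, and capitals mark the matches to the motifs named below. Prdm1 (chr10:44458749-44458998, minus strand), Tbx21 (chr11:97115332-97115581, minus strand) and Bcl6 (chr16:23988853-23989102, minus strand) are factors whose groups were separate, and Irf4 (chr13:30748983-30749232, plus strand) is one whose groups overlapped. The Prdm1 window precedes a RefSeq start inside the longer GENCODE gene.
Prdm1: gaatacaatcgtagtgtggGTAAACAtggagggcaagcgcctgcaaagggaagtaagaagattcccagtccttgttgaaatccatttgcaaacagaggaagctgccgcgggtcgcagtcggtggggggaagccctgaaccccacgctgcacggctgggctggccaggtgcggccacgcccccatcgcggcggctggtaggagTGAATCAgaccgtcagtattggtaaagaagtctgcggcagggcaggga
Tbx21: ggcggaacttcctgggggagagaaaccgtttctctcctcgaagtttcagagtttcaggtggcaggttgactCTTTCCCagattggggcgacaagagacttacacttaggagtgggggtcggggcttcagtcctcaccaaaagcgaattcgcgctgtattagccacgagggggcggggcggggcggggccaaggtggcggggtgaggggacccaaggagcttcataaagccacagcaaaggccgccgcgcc
Bcl6: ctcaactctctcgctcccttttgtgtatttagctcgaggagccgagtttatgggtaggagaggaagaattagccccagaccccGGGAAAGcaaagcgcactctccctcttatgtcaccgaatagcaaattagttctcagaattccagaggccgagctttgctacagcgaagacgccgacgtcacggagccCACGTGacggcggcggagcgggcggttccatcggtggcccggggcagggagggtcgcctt
Irf4: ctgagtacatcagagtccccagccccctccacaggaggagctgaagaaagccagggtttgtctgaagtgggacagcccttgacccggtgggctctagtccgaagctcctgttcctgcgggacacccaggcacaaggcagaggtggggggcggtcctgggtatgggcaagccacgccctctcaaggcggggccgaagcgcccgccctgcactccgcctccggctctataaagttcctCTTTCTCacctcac

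The windows were searched on both strands for 9 motifs. Prdm1 held an AP-1 site, TGANTCA, the kind that Batf binds with Jun partners, as TGAATCA from 48 to 42 bases before the start. It also held a Foxo site, GTAAACA, from 231 to 225 bases before it. Bcl6 held the E-box CACGTG, which Bhlhe40 can bind, from 60 to 55 bases before its start. The Blimp-1 core GNGAAAG was matched in Irf4, Tbx21, Batf and the shown window of Bcl6, and Nfil3 held the ROR half-site AGGTCA with an A or T before it, on the other strand.

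Such matches occur in many promoters. Among all 32851 windows of that length, 6.75% held TGANTCA, 3.17% GTAAACA, 6.02% CACGTG, 6.18% the ROR half-site and 19.4% GNGAAAG. The T-box half-site GGTGTGA (3.33% of all windows), the Nfil3 site TTANGTAA (2.06%) and the Maf half-site TGCTGAC (3.81%) had no match in the 8 windows. Nor had GAAA followed after 2 bases by GAAA (2.98%), the form that interferon regulatory factors bind, which shares its letters in part with the Blimp-1 core. A match describes letters only, and no binding was measured.

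Among the 4 factors of the Irf4 and Batf circuit, the groups were apart for Maf and Prdm1 and overlapped for Irf4 and Batf. Irf4, an interferon regulatory factor induced by T cell receptor signals, was at 26.6 and 64.9 CPM in the resting libraries and at 56.8 and 62.5 CPM in the activated libraries. Only resting A was low; resting B was above both activated libraries. The log2 fold change was 0.38 ± 0.43 (SE, edgeR adjusted p = 0.954), and it was -0.13 without resting A and 1.15 without resting B. Irf4 is at chr13:30749226-30766976 (plus strand; mm10, GENCODE M21, as for all genes here).

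Batf, the basic leucine zipper partner of Irf4 on DNA, was at 43.6 and 87.4 CPM in the resting libraries and at 80.3 and 188 CPM in the activated libraries. Activated B was well above the rest, and activated A was below resting B. The log2 fold change was 1.03 ± 0.52 (edgeR adjusted p = 0.724, higher in 1 of 2 activated libraries than in both resting ones). Leaving out activated B gave 0.29 and leaving out resting A 0.61; leaving out resting B gave 1.60 and leaving out activated A 1.52, where DESeq2 called it (adjusted p = 0.0146). Batf is at chr12:85686669-85709087 (plus strand).

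Prdm1 encodes Blimp-1, a zinc finger repressor that marks interleukin 10 producing effector Treg. It was at 15.003 and 21.1 CPM in the resting libraries and at 30.9 and 53.7 CPM in the activated libraries. The groups did not overlap, and the gap between the nearest libraries of the groups was smaller than the gap between the activated libraries. The log2 fold change was 1.22 ± 0.35, with an edgeR adjusted p of 0.399 and a DESeq2 adjusted p of 0.0618. With 1 library left out, the DESeq2 adjusted p was 0.0146 without activated A, 0.108 without resting B, 0.760 without resting A and 0.99999 without activated B, where the log2 fold change was 0.77 (edgeR adjusted p = 0.823). Prdm1 is at chr10:44437177-44528501 (minus strand).

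Maf had the largest log2 fold change of the 9 factors, 1.78 ± 0.48, which is a 3.43-fold difference. It was at 35.2 and 91.6 CPM in the resting libraries and at 192 and 244 CPM in the activated libraries, so both activated libraries were over 2-fold above the higher resting one. DESeq2 called it higher (adjusted p = 0.00539) and edgeR did not (adjusted p = 0.368). The DESeq2 call was kept without resting B and lost without any 1 of the other libraries: the adjusted p was 1.24e-08 with resting B left out, 0.0526 with resting A left out, and 0.602 and 0.122 with activated A or B left out. The log2 fold change stayed above 0 in these fits, from 1.24 to 2.62. Maf is at chr8:115682942-115707794 (minus strand).

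The plot of the 9 genes by library sets these values beside those of the remaining 5.

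**Figure D1:**
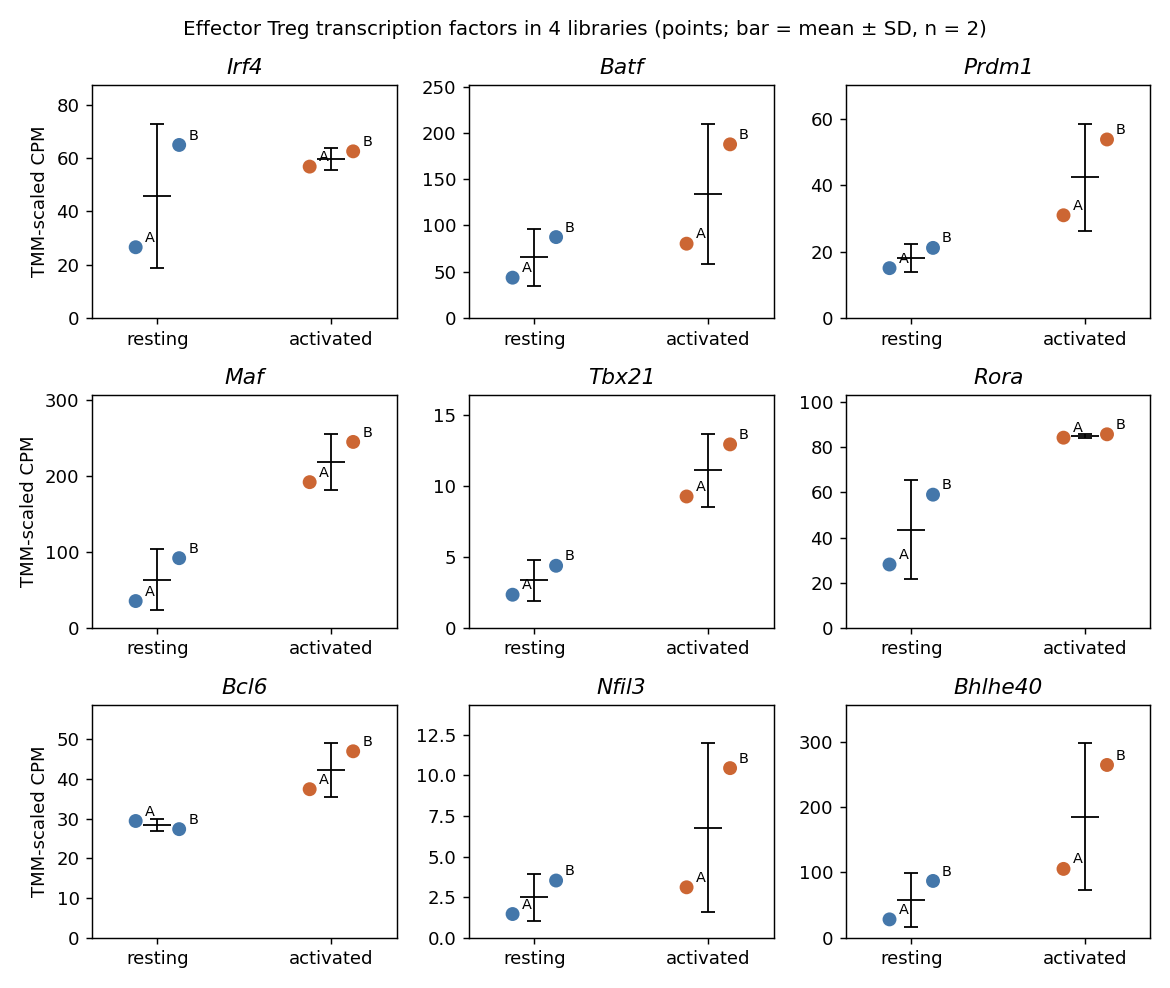
CPM (linear axis from 0) of each of the 9 factors in the 4 libraries; points are libraries, lettered A and B, and bars are the mean ± SD of n = 2. Maf, Prdm1, Tbx21, Rora, Bcl6 and Bhlhe40 have both activated libraries above both resting ones, whereas Irf4, Batf and Nfil3 overlap.

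Each of the 3 lineage factors was separate between the groups, at different levels. Tbx21 was at 2.33 and 4.37 CPM in the resting libraries and at 9.25 and 12.9 CPM in the activated libraries, from 48, 134, 283 and 262 counts. Both activated libraries were over 2-fold above resting B. The log2 fold change was 1.70 ± 0.44; DESeq2 called it higher (adjusted p = 0.032) and edgeR did not (adjusted p = 0.363). Without any 1 of the 4 libraries the DESeq2 call was lost, with adjusted p from 0.0689 to 0.99999, while the log2 fold change stayed between 1.32 and 2.24. Tbx21 is at chr11:97098071-97115331 (minus strand).

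Rora, a nuclear receptor of tissue T cells and innate lymphoid cells, was at 28.1 and 59.0 CPM in the resting libraries and at 84.3 and 85.8 CPM in the activated libraries. The activated libraries were nearly equal, whereas resting B was over 2-fold above resting A. The log2 fold change was 0.96 ± 0.37 (edgeR adjusted p = 0.547, DESeq2 adjusted p = 0.246, both activated libraries above both resting ones). It was 0.52 without resting A and 1.58 without resting B, where DESeq2 called it (adjusted p = 0.00663). Rora is at chr9:68653786-69388246 (plus strand).

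Bcl6, the zinc finger repressor of follicular T cells, was at 29.4 and 27.3 CPM in the resting libraries and at 37.4 and 46.9 CPM in the activated libraries. The resting libraries were close, and both activated ones were above them by a small step. The log2 fold change was 0.57 ± 0.21 (edgeR adjusted p = 0.524). It is the smallest difference of the 6 factors whose groups were separate. Bcl6 is at chr16:23965052-23988852 (minus strand).

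Nfil3 and Bhlhe40 varied widely within each group. Nfil3, a basic leucine zipper repressor, was at 1.46 and 3.52 CPM in the resting libraries and at 3.10 and 10.4 CPM in the activated libraries, from 30, 108, 95 and 212 counts. Only activated B stood out, and activated A was below resting B. The log2 fold change was 1.40 ± 0.74 (edgeR adjusted p = 0.745), and 0.30 without activated B. Nfil3 is at chr13:52967209-52981073 (minus strand).

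Bhlhe40, a basic helix-loop-helix repressor that T cell receptor signals induce, was at 28.0 and 86.9 CPM in the resting libraries and at 105 and 265 CPM in the activated libraries. The step from resting B to activated A was far smaller than the step between the libraries of either group. The log2 fold change was 1.68 ± 0.68 (edgeR adjusted p = 0.580, DESeq2 adjusted p = 0.102). Without resting B it was 2.70 and both edgeR (adjusted p = 0.0349) and DESeq2 (adjusted p = 2.95e-05) called it, and without activated B it was 0.86. Bhlhe40 is at chr6:108660629-108666925 (plus strand).

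**Figure D2:**
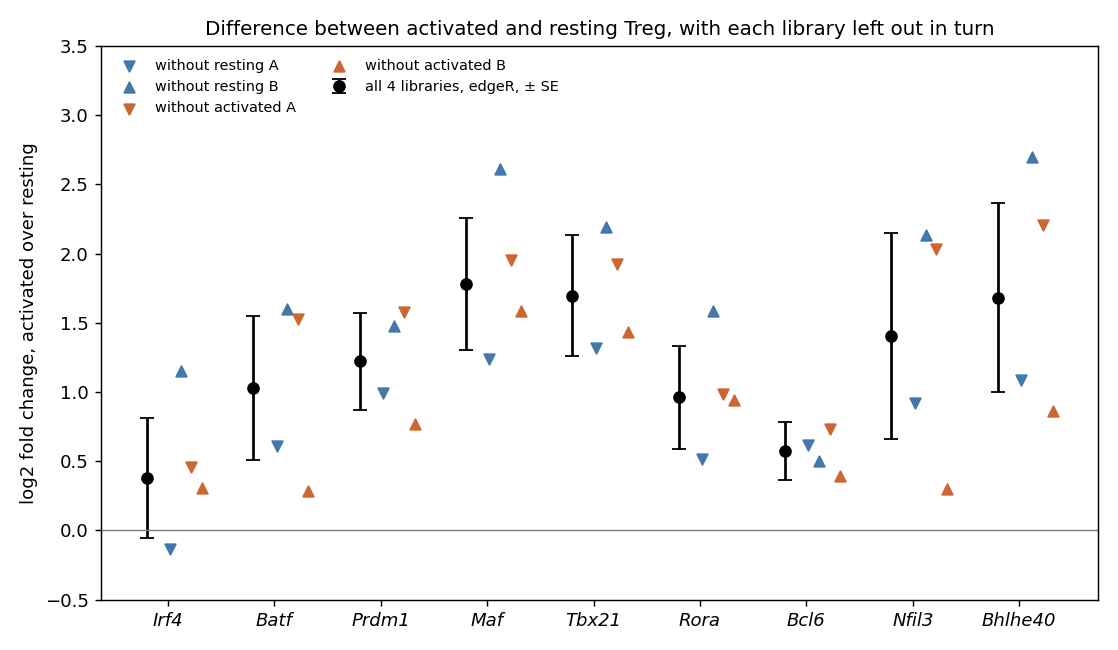
Log2 fold change, activated over resting, of each factor: black circles are edgeR's value from all 4 libraries ± SE, and triangles are the value without 1 library. All triangles lie above 0 except that of Irf4 without resting A (-0.13), and leaving out resting B raises the value of 8 factors, with Bcl6 the exception.

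The authors' regularized log2 values, which carry replicate numbers 1 and 2 in place of the letters, gave a like picture. In each group, replicates 1 and 2 lay in the same order as A and B for all 9 genes. Maf was at 9.90 and 11.18 in resting replicates 1 and 2 and at 12.15 and 12.48 in activated replicates 1 and 2. Tbx21 was at 6.19 and 6.87 against 7.71 and 8.10. Irf4 overlapped here too, at 9.45 and 10.63 against 10.43 and 10.57. On that scale low counts are shrunk. Limma on these values without pairing called 0 of the 9, with 4 higher at an unadjusted p under 0.05, beside 6.98% of all genes.

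Divided by exon length (GENCODE M21, all exons of a gene merged), the levels of the 9 genes can be set side by side. Batf was the highest in resting Treg, at 46.6 ± 22.0 CPM per kb (SD, n = 2), followed by Bhlhe40 at 12.2 ± 8.85, Irf4 at 9.33 ± 5.54 and Maf at 7.69 ± 4.84. Bcl6 (4.23 ± 0.217), Rora (3.33 ± 1.67) and Prdm1 (3.24 ± 0.772) came next, and Tbx21 (1.35 ± 0.579) and Nfil3 (1.23 ± 0.721) were lowest. Batf from Bhlhe40 and Prdm1 from Tbx21 differed by more than the larger of their SDs; the other neighbours in this order differed by less.

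In activated Treg the order per kb was Batf (95.2 ± 54.0), Bhlhe40 (39.3 ± 23.9), Maf (26.4 ± 4.54), Irf4 (12.2 ± 0.826), Prdm1 (7.59 ± 2.89), Rora (6.50 ± 0.0808), Bcl6 (6.29 ± 1.01), Tbx21 (4.45 ± 1.04) and Nfil3 (3.34 ± 2.56). Against the resting order, Maf was above Irf4, Prdm1 above Rora and Bcl6, and Rora above Bcl6. Neighbours differed by more than the larger SD for Batf and Bhlhe40 (barely), Maf and Irf4, Irf4 and Prdm1, and Bcl6 and Tbx21, and by less for the others. Bcl6 and Prdm1 repress each other in lymphocytes. The ratio of Bcl6 to Prdm1 per kb was 1.63 and 1.08 in resting A and B and 1.01 and 0.727 in activated A and B. The lowest resting ratio and the highest activated one were nearly equal.

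The factors also differed between the libraries of a group. In resting B 8 of the 9 factors were above resting A, Bcl6 being the exception, with a median log2 difference of 1.04; over all tested genes the median was 0 and 49.7% were above. In activated B all 9 were above activated A, with a median of 0.46, against 48.3% of all tested genes and a median of -0.026. Activated B was also the library with the most genes detected, and the part of that in these values was not tested. Bhlhe40 differed most within resting Treg, by 3.10-fold, and Nfil3 within activated Treg, by 3.37-fold. Rora (1.02-fold) and Irf4 (1.10-fold) were almost level between the activated libraries, and Bcl6 (0.93-fold) between the resting ones. The 21 genes of an effector Treg list, described further on, lay the same way: all 21 were higher in resting B than in resting A and 17 were higher in activated B than in activated A.

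**Figure D3:**
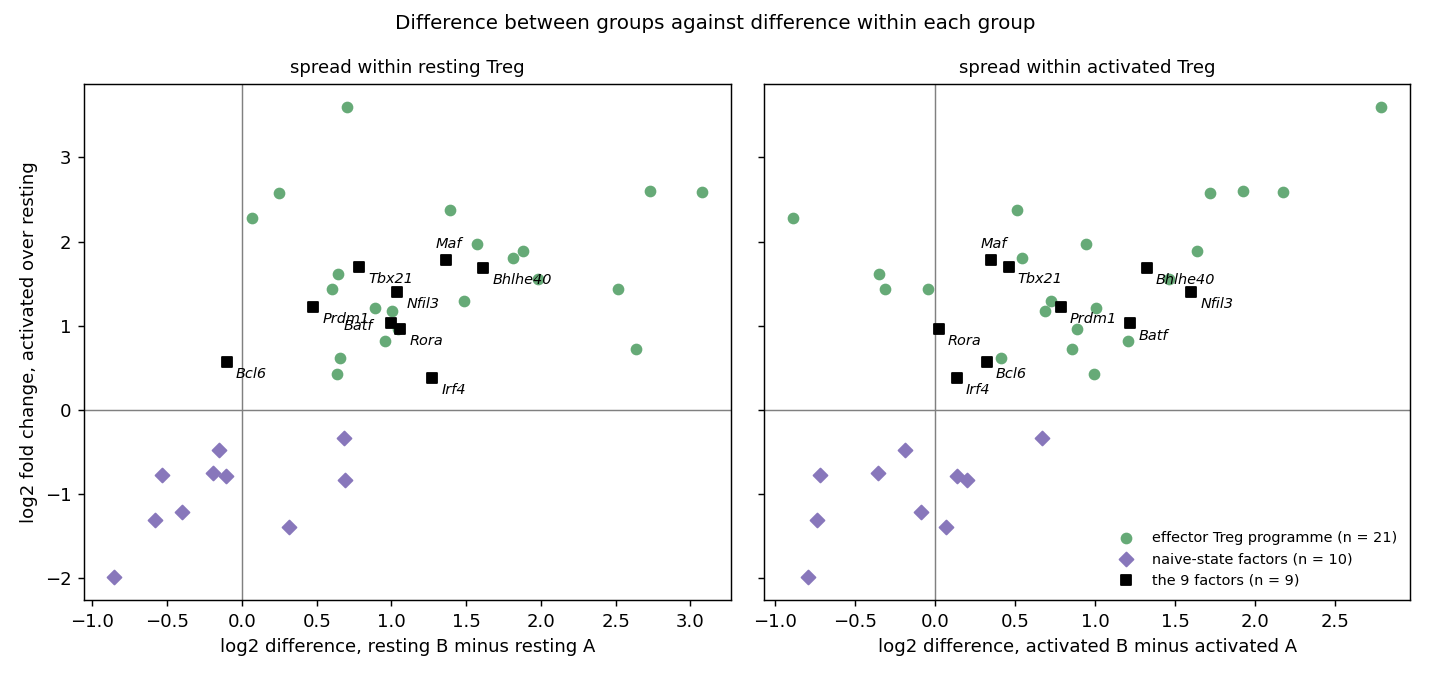
Log2 fold change between the groups (vertical) against the log2 difference between the libraries of a group (horizontal, pseudocount 0.5 CPM), for resting Treg (left) and activated Treg (right). Black squares are the 9 factors, green circles 21 effector Treg genes and violet diamonds 10 naive-state factors; the factors lie above 0 on both axes in both panels, except Bcl6 in the left one.

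Markers of macrophages and dendritic cells also differed between the libraries of a group, and for macrophages the library with more was the one with less of most factors. The summed level of 12 macrophage markers was 868 and 20.4 CPM in the resting libraries and 888 and 75.4 CPM in the activated libraries. All 12 were higher in A than in B in either group. The summed level of 12 classical dendritic cell markers, led by Cd74, was 642 and 229 CPM in resting Treg and 5205 and 1660 CPM in activated Treg. That of 12 plasmacytoid dendritic cell markers was 169 and 176 CPM against 1280 and 414 CPM; Irf8 had the highest mean over the 4 libraries, and Siglech, which defines these cells, was at 0.777 and 0.261 CPM against 279 and 58.7 CPM. In the classical list 11 of 11 tested members, and in the plasmacytoid list 10 of 11, had both activated libraries above both resting ones, beside 19.8% of all genes. Between the groups, both summed dendritic levels were higher in activated Treg, as the 9 factors were by log2 fold change. Within activated Treg, all 9 factors were higher in B, where both summed levels were lower. Dendritic cells themselves express some of the 9 factors, Irf4 among them. The part of such cells in the values of the factors was not tested.

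Markers of 5 other cell types were read in the same way, and their part in the values of the factors was not tested. The 7 plasma cell markers, a cell type defined by Prdm1 and Irf4, summed to 30.1 and 72.6 CPM in the resting libraries and to 77.9 and 89.3 CPM in the activated libraries. Resting A was lowest, as it was for every factor except Bcl6. Irf4 was highest in resting B, whereas this sum was lower there than in either activated library. All 5 tested members of this marker list had a log2 fold change above 0. Their most abundant gene was Txndc5, a chaperone that other cells also use, and DESeq2 called 1 of them higher, Mzb1, at 0.486 and 1.11 CPM against 6.08 and 5.72 CPM (adjusted p = 0.00112). Jchain, also on this list, was well detected, at 9.23 and 31.9 CPM against 31.4 and 37.1 CPM. It rested on 190, 978, 960 and 753 counts, and its groups overlapped. Sdc1, the plasma cell surface marker, was at 0.291 and 0.456 CPM against 3.07 and 1.33 CPM and did not pass. Tnfrsf17 and Ighg1 had at most 9 and 2 counts in a library. The 8 markers of natural killer cells and type 1 innate lymphoid cells, which share Tbx21 and Nfil3 with T cells, summed to 35.7 and 19.8 CPM and to 24.9 and 22.1 CPM. Among the 4 tested, 2 lay above 0 and 2 below. Prf1, the most abundant over the 4 libraries, was at 31.5 and 13.4 CPM against 10.4 and 4.68 CPM and did not pass. Klrb1c was called higher by DESeq2, at 2.14 and 3.88 CPM against 11.7 and 15.7 CPM (adjusted p = 0.000731), and the defining receptor gene Ncr1 had 0 counts in both resting libraries and 7 and 4 counts in the activated ones. The 12 B cell markers summed to 767 and 958 CPM against 1308 and 1941 CPM, nearly all of it Ighm, at 715 and 889 CPM against 1217 and 1821 CPM. The 2 CD8 T cell markers, led by Cd8b1, summed to 30.4 and 27.2 CPM against 81.7 and 35.7 CPM. The 4 erythroid markers summed to 10.5 and 0.750 CPM against 6.57 and 1.53 CPM.

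The closest relatives of the factors did not all follow them. Irf8, the relative of Irf4 that dendritic and B cells use, was at 29.96 and 34.8 CPM in the resting libraries and at 271 and 109 CPM in the activated libraries, and DESeq2 called it higher (adjusted p = 1.23e-06; log2 fold change 2.55 ± 0.46). It was highest in activated A, as the dendritic markers were. The ratio of Irf4 to Irf8 per kb went from 1.28 and 2.69 in resting A and B to 0.302 and 0.823 in activated A and B.

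Eomes, the T-box relative of Tbx21 in cytotoxic cells, lay the other way, at 2.14 and 2.45 CPM in the resting libraries and at 0.882 and 0.591 CPM in the activated libraries. Eomes rested on 44 and 75 counts in resting Treg and on 27 and 12 counts in activated Treg, and did not pass (DESeq2 adjusted p = 0.435). The ratio of Tbx21 to Eomes per kb was 1.82 and 2.98 in resting Treg. It was 17.5 and 36.5 in activated Treg, where these few Eomes counts make it uncertain. Bhlhe41, Bcl6b and Batf3, close relatives of Bhlhe40, Bcl6 and Batf, were all under 4 CPM in every library. Bach2, which opposes Batf at shared DNA sites and holds Treg in the resting state, is also on the naive-state list and was at 84.2 and 56.1 CPM against 35.6 and 21.2 CPM and was called lower by DESeq2 (log2 fold change -1.30 ± 0.35, adjusted p = 0.0216). The ratio of Batf to Bach2 per kb was 3.66 and 11.003 in resting Treg and 15.9 and 62.6 in activated Treg.

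**Figure D4:**
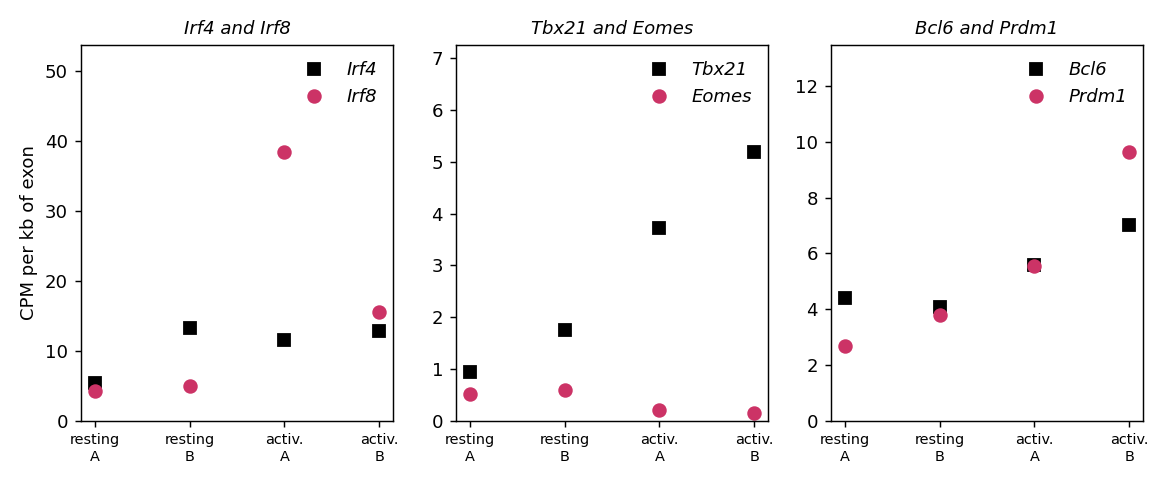
CPM per kb of exon (linear axis from 0) of 3 gene pairs in the 4 libraries; squares are the factor named first and circles its partner. Irf8 passes Irf4 in both activated libraries, Eomes is lower in both activated libraries while Tbx21 is higher, and Prdm1 draws level with Bcl6 in activated A and passes it in activated B.

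Among all 20 tested genes of the list of partner and related factors, DESeq2 called 2 higher and 1 lower, edgeR called 0, and at an unadjusted edgeR p under 0.05, 3 were higher and 2 lower. The shares over all genes were 2.32% and 0.845% for the DESeq2 calls and 6.3% and 2.61% for the unadjusted ones. The median log2 fold change was 0.22, and from 0.11 without activated B to 0.45 without activated A. The DESeq2 calls higher were 4 without resting B, and the call lower was lost without resting A or activated B. The 2 higher genes were Irf8 and Id2, an inhibitor of E proteins at 89.5 and 103 CPM against 244 and 357 CPM. Irf1 (424 and 380 against 405 and 425 CPM) and Irf2 (254 and 247 against 228 and 245 CPM), which are abundant, did not pass.

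Genes of programmes and cell states linked to the factors were read from 5 further lists. Of their members, edgeR over all genes called 0. In the effector Treg list (21 tested) the median log2 fold change was 1.55, all 21 lay above 0, and 17 had both activated libraries above both resting ones, beside 19.8% of all genes. DESeq2 called 6 higher and 0 lower, beside the 2.32% of all genes, and at an unadjusted edgeR p under 0.05, 10 were higher (6.3% of all genes) and 0 lower. The median was 2.68 without resting B, and the DESeq2 calls were 14 without resting B, 9 without activated A, 3 without activated B and 1 without resting A. Il10, the suppressive cytokine under Prdm1 and Maf, was at 0.388 and 0.946 CPM in the resting libraries and at 1.93 and 16.3 CPM in the activated libraries, and was called higher (DESeq2 adjusted p = 0.00954); most of it was in activated B. Ebi3, a subunit of interleukin 35, was at 5.54 and 17.4 CPM against 30.9 and 59.9 CPM, and Fgl2, a secreted suppressive protein, at 4.66 and 13.0 CPM against 38.3 and 54.9 CPM. Both were called higher (DESeq2 adjusted p = 0.0286 and 0.000439). The remaining calls were Ccr6 (17.4 and 27.4 against 77.5 and 60.6 CPM), Itgb8 (13.4 and 20.7 against 51.6 and 41.5 CPM) and Havcr2 (1.75 and 1.86 against 11.9 and 6.21 CPM). Their DESeq2 adjusted p values were 0.00018, 0.00166 and 0.00176. Each was higher in activated A than in activated B, unlike Il10, Ebi3 and Fgl2. The abundant costimulatory receptor Icos, at 130.4 and 262 CPM against 340.2 and 548 CPM, did not pass (DESeq2 adjusted p = 0.105).

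In the T-bet list (15 tested) the median was 1.41, all 15 lay above 0, DESeq2 called 6 higher and 0 lower, and at an unadjusted edgeR p under 0.05, 8 were higher and 0 lower, beside 2.32% and 6.3% of all genes called higher. Leaving out resting B gave a median of 2.18 and 8 DESeq2 calls; the calls were 3 without activated B, 4 without activated A and 5 without resting A. Cxcr3, a chemokine receptor driven by T-bet, was at 30.9 and 104 CPM in the resting libraries and at 248 and 279.5 CPM in the activated libraries (DESeq2 adjusted p = 0.00739). Ccl5, a chemokine of effector T cells, was at 8.55 and 20.4 CPM against 145 and 205 CPM, a log2 fold change of 3.58 ± 0.49 (DESeq2 adjusted p = 1.62e-12). In both genes resting A was lowest, as in Tbx21 and every other factor except Bcl6. The signal transducer Stat4, at 220.0 and 189 CPM against 249 and 213 CPM, did not pass.

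In the follicular list (14 tested), which goes with Bcl6, the median was 0.77, with 11 above 0 and 3 below; DESeq2 called 4 higher and 1 lower, and at an unadjusted edgeR p under 0.05, 5 were higher and 2 lower. Over all genes DESeq2 called 2.32% higher and 0.845% lower, and the unadjusted shares were 6.3% and 2.61%. Without activated B the median was 0.38 and DESeq2 called 1 higher; without resting A it called 2 higher, and the call lower was lost without either resting library. The follicle homing receptor Cxcr5 was among the 4, as was Sostdc1, a secreted protein of follicular T cells, at 0.0971 and 0.913 CPM in the resting libraries (2 and 28 counts) and at 5.98 and 23.6 CPM in the activated libraries (DESeq2 adjusted p = 6.18e-05). Il6ra, the interleukin 6 receptor, was called lower, at 137 and 122 CPM against 67.0 and 48.1 CPM (DESeq2 adjusted p = 0.00131). Slamf6 (224 and 238 against 254 and 235 CPM) did not pass.

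The clock genes, to which Rora, Nfil3 and Bhlhe40 belong by function, had a median of 0.39 over 13 tested, with 10 above 0 and 3 below. DESeq2 called 1 higher and 0 lower, and at an unadjusted edgeR p under 0.05, 2 were higher and 0 lower, beside 2.32% and 6.3% of all genes called higher. The DESeq2 call was lost without any 1 of the 4 libraries, and the median was 0.64 without activated B. The called gene was Nr1d1, a nuclear receptor that competes with Rora for DNA sites, at 7.04 and 4.89 CPM against 17.0 and 12.7 CPM (adjusted p = 0.0431). It was higher in A than in B in each group, unlike Rora. Arntl (25.2 and 33.2 against 36.3 and 40.6 CPM) did not pass.

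The 10 factors of the naive state lay the other way: all 10 were below 0, with a median of -0.80, and 9 had both activated libraries below both resting ones, beside 17.4% of all genes. DESeq2 called 5 lower, beside 0.845% of all genes, and 0 higher, and at an unadjusted edgeR p under 0.05, 8 were lower (2.61% of all genes) and 0 higher. With 1 library left out DESeq2 called 6 lower without activated A, 4 without activated B, 3 without resting B and 2 without resting A. Satb1, a chromatin organizer, was at 322 and 178 CPM in the resting libraries and at 80.3 and 46.1 CPM in the activated libraries (log2 fold change -1.98 ± 0.41, DESeq2 adjusted p = 0.000124). Tcf7, which Blimp-1 represses in T cells, was at 916 and 850.0 CPM against 489 and 539 CPM (DESeq2 adjusted p = 0.0072). Ets1, the most abundant of the 10, was at 4091 and 3682 CPM against 2976 and 2617 CPM and did not pass (DESeq2 adjusted p = 0.302).

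For each factor the genes with the most similar profile were sought among 7115 protein-coding genes averaging 4 log2 CPM or more, by the root mean square distance between log2 CPM values centred on their mean over the 4 libraries. With only 4 libraries such likeness is common: 894 genes lay within 0.25 of Bcl6, and 54 within 0.25 of Prdm1. Fewer lay so close to Maf (12), Bhlhe40 (10) and Nfil3 (5). Nearest to Maf were Lag3, an inhibitory receptor (distance 0.179), and Il18rap, a receptor subunit (0.185). Nearest to Bhlhe40 were Gzmb (0.143) and Ccr8 (0.174), a protease and a chemokine receptor of effector Treg.

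Tnfrsf4 (0.106) and Pglyrp1 (0.111) were nearest to Batf, Ccrl2 (0.195) and Tnfrsf1b (0.218) to Nfil3, and Txndc5 (0.106) and Oas1a (0.111) to Irf4. Matk (0.0467) and Cyfip1 (0.0771) were nearest to Tbx21, Casp4 (0.0637) and Orai3 (0.0833) to Rora, Bcl2a1b (0.0512) and Ggt7 (0.0539) to Prdm1, and Abhd6 (0.0542) and Slc39a6 (0.0555) to Bcl6. Bcl2a1b belongs to a family of near-identical copies, so its counts are uncertain.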

How the data were processed

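RNA from 4 libraries was isolated with a column kit and amplified with SMART-seq v4, per the labels' protocols; this chemistry amplifies by PCR and has no molecular identifiers, so counts are reads. Per the submitters' processing notes, the build was mm10 and the tools named are featureCounts, STAR 2.4.0c and DESeq2, without roles; no source used here gives the annotation release or strand setting. The authors deposited raw counts and DESeq2 regularized log2 values for the same genes. The headings of the count table repeat 1 replicate number within each group, so columns were assigned to groups only.

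Symbols and exon lengths came from GENCODE M21 (37607 of 38924 identifiers matched). The counts were filtered (filterByExpr, minimum count 10, minimum total 15), TMM-scaled and tested with edgeR 4.0.16 (R 4.3.3; quasi-likelihood F-test, group only, prior count 2, Benjamini-Hochberg, threshold 0.05); the SE was taken as the fitted log2 difference divided by the root of its F value. DESeq2 1.42.0 and limma 3.58.1 served as alternatives. Exons of 4 of the 9 genes overlap antisense genes (Maf with Gm15655, Rora with Gm15511, Bhlhe40 with 0610040F04Rik, Bcl6 with Gm37419), whose reads cannot be told apart without strand. An exact two-sided permutation test of 2 against 2 libraries cannot go below p = 0.333 and was not run.

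The members and lists were chosen with earlier results of these data known. Besides the members, the naming rule took from each list up to 4 genes with the highest mean CPM and those that DESeq2 called, from each list of another cell type its most abundant gene and markers at 0, and the 2 nearest profiles per factor; some of these are not reported here. Eomes, Bhlhe41, Bcl6b, Batf3, Siglech, Mzb1, Jchain, Sdc1, Klrb1c, Tnfrsf17 and Ighg1 were chosen after their values were seen.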

Additional observations from a re-analysis of the deposited data

How the results depend on the processing

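The 9 log2 fold changes were computed under 14 alternatives each; of the 126 values 103 kept direction and side of the threshold, 21 passed it where edgeR's all-library fit did not, and 2 changed sign, both Irf4 without resting A (-0.13 in edgeR and in DESeq2). DESeq2 size factors in edgeR, limma-voom and limma on the regularized log values without pairing called 0 genes. With no filter on low counts edgeR called 675 genes higher and 177 lower and 6 of the 9 factors: Prdm1 (1.18), Batf (0.98), Maf (1.74), Rora (0.92), Tbx21 (1.65) and Bhlhe40 (1.63). It then called 3 partner genes higher and 1 lower, 18 effector, 9 T-bet and 5 follicular genes higher, 1 follicular gene lower and 7 naive-state genes lower; the cause was not tested. DESeq2 called 324 genes higher and 118 lower, and 2 factors, Maf (1.78) and Tbx21 (1.72). Its list calls were 2 partner genes higher and 1 lower, 6 effector and 6 T-bet genes higher, 4 follicular genes higher and 1 lower, 1 clock gene higher and 5 naive-state genes lower; the cause of the difference from edgeR was not tested. The naive-state median was -0.74 on the regularized log values.

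The series states that the duplicates came from independent animals. Whether same-numbered resting and activated samples share an animal or a sort is not given. Deviations of same-numbered samples from their group means correlated at r = 0.652 over 14235 genes. With the replicate block, limma on the regularized log values called 629 genes higher and 190 lower, and 6 factors: Prdm1 (1.06), Batf (0.90), Maf (1.77), Tbx21 (1.38), Nfil3 (0.95) and Bhlhe40 (1.61). The block called 2 partner genes higher and 1 lower, 15 effector, 6 T-bet, 4 follicular and 2 clock genes higher, 1 follicular gene lower and 4 naive-state genes lower, and left the naive-state median at -0.74.

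With 1 library left out, in edgeR or, chosen after seeing the data, DESeq2, the group with a lone sample was assumed to vary like the other. Genes called higher ranged from 0 to 334 and lower from 0 to 131, and factors called from 0 to 3. The factors' median ranged from 0.76 to 1.61. Single log2 fold changes ranged from 0.76 to 1.58 for Prdm1, -0.13 to 1.16 for Irf4, 0.28 to 1.61 for Batf, 1.24 to 2.62 for Maf, 0.52 to 1.59 for Rora, 1.32 to 2.24 for Tbx21, 0.30 to 2.21 for Nfil3, 0.86 to 2.72 for Bhlhe40 and 0.39 to 0.74 for Bcl6. List medians ranged from 0.11 to 0.45 (partner), 1.11 to 2.72 (effector), 0.96 to 2.19 (T-bet), 0.38 to 1.08 (follicular), 0.34 to 0.64 (clock) and -1.05 to -0.86 (naive state). Calls ranged from 0 to 4 higher and 0 to 1 lower among partner genes, 0 to 14 effector, 0 to 8 T-bet and 0 to 4 follicular genes higher, 0 to 1 follicular gene lower and 0 to 6 naive-state genes lower; no clock gene was called (0 to 0).

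Duplicates limit what a test can show: edgeR had 2 residual degrees of freedom and a typical between-library coefficient of variation of 0.352. Nfil3 rests on 30 to 212 counts and Tbx21 on 48 to 283, the fewest of the 9.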
